A study of Mus musculus with 2 samples.

Results

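The nuclear ribosomal RNA (rRNA) locus of chromosome 17 was described through the sites listed in it in an LRPPRC-FLAG library. Its members were chosen by position, as the sites of the list that lay on chromosome 17 (mm10), on either strand, between the first base of Gm26917 and the last base of CT010467.1, so that the positions of sites selected the locus and their number is a description. The locus held 18 of the 552 listed sites, and all 18 lay wholly inside its 5815 nt. The first site began 71 nt inside the locus and the last ended 626 nt before its end. The nearest sites outside were far away, at chr17:35928405-35928479 on the plus strand, 3914534 nt before the locus, and at chr17:50420091-50420167 on the minus strand, 10571264 nt after it.

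The 18S rRNA is the RNA of the small subunit of the cytosolic ribosome. It is transcribed in the nucleolus with the 5.8S and 28S rRNAs as a single precursor, from which the 5′ external transcribed spacer (5′ETS) and the internal transcribed spacers are removed. The genes for this precursor lie in tandem repeats of which reference genomes hold few copies, so that reads from any copy can be placed on those few. LRPPRC is an RNA-binding protein of mitochondria, and the 18S rRNA is a cytosolic and nuclear RNA.

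In this series PAR-CLIP, a method in which a photoreactive uridine crosslinks RNA to the bound protein and is then read as C, was applied to mouse embryonic fibroblasts (MEFs) from Lrpprc-FLAG transgenic mice. The labels of both samples give an induction of LRPPRC-FLAG with doxycycline at 2 μg/ml for 72 h, and do not describe how the transgene responds to it in these cells. The experimental sample was 1 library, so that the values have no replicates, no spread between replicates and no test. The control sample was not analysed here, and what distinguished it is not given in its labels. Sites of the locus were therefore not compared with background, and whether they are sites of LRPPRC-FLAG or background of the method was not tested. The cells were lysed with digitonin, and the lysate was cleared by centrifugation, diluted and incubated with anti-FLAG beads. The RNA thus came from a cleared lysate of cells rather than from isolated mitochondria. The list gave positions only, with no read count or signal for a site, so the depth behind each site is unknown and the extent of a site was the only measure of it.

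To place the sites on the precursor, the ends of the 18S rRNA were found by its letters. The first letters searched, TACCTGGTT, occurred once on the plus strand of the locus and not on the minus strand, and the last letters searched, GGATCATTA, likewise occurred once on the plus strand and not on the minus strand. The 18S copy therefore read along the plus strand from chr17:39846353-39848201 and was 1849 nt long. Whether this copy holds every base of the mature 18S rRNA was not tested. The 3340 nt before it were taken as 5′ETS. The start of the precursor was not searched for, so the 5′ETS may extend before the locus. The 626 nt after 18S were taken as the beginning of the first internal transcribed spacer (ITS1), since the first letters of 5.8S rRNA, CGACTCTTA, were on neither strand of the locus. Below, 5′ETS and ITS1 mean these stretches of the locus only. Positions are counted from 1 at the first base of 18S, and bases before it have negative positions.

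The annotated genes of the locus did not all follow this strand. CT010467.1 (ENSMUSG00000106106.2), annotated as an rRNA gene of 2475 nt, was on the minus strand in GENCODE vM21 and covered 18S and ITS1. A transcript of this gene had the ends of the 18S copy and was its reverse complement over all 1849 nt. Gm26917 (ENSMUSG00000097971.3), annotated as a long intergenic noncoding RNA of 3329 nt on the plus strand, ran from the first base of the locus to position -12 and so corresponded to the 5′ETS. Gm42418 (ENSMUSG00000098178.1), of the same class, ran on the plus strand at chr17:39846958-39848788 over most of 18S and into ITS1. AY036118 (ENSMUSG00000105361.1) lay in GENCODE on the minus strand at chr17:39847113-39848035, wholly inside 18S. In RefSeq the 18S copy was the pseudogene Rn18s-rs5, on the plus strand at chr17:39846354-39848202. RefSeq gave AY036118 a different extent, chr17:39848112-39898385 on the minus strand, from the 3′ end of 18S over ITS1 to beyond the locus. Plus-strand sites had the sense of the precursor rRNA, and minus-strand sites had the opposite sense although they shared the strand of CT010467.1.

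The sequences on which the description turned are given in mm10, 5′ to 3′. The first shows the junction of 5′ETS and 18S, where the widest site of the list began, at chr17:39846309-39846408 on the plus strand, with the first 9 bases of 18S in capitals. The second is the whole last plus-strand site, chr17:39848096-39848201, with the last 9 bases of 18S in capitals. The third is the beginning of ITS1, chr17:39848202-39848261 on the plus strand, which no site entered.
5′ETS to 18S: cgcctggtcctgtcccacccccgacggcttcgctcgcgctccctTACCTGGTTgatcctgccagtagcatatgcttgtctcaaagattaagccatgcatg
18S 3′ end: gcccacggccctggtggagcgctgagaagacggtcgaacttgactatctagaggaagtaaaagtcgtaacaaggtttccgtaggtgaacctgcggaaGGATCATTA
ITS1 start: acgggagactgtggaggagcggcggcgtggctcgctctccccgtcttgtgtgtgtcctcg

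The plus strand held 11 sites and the minus strand 7. The minus-strand share was 38.9% of the 18 sites (95% Wilson interval 20.3 to 61.4). Among the other 486 nuclear sites it was 48.1%, inside that interval. Plus-strand sites covered 2360 of the 5815 bases of the locus (40.6%, 95% Wilson interval 39.3 to 41.9) and minus-strand sites 911 (15.7%, 14.8 to 16.6), which put 72.1% of the bases in sites on the rRNA strand. Of the bases of the other 486 nuclear sites, 24905 of 45965 were on the plus strand. The intervals cover counting error only, and those over bases are too narrow because neighbouring bases are not independent. The mature rRNA and the spacers differed in extent. On the rRNA strand, sites covered 1616 of 1849 bases of 18S (87.4%, 85.8 to 88.8), 744 of 3340 bases of 5′ETS (22.3%, 20.9 to 23.7) and none of the 626 bases of ITS1. Over both spacers together this was 18.8%. A single site of 849 nt carried much of this cover, and without it the covered share was 43.9% in 18S, 26.0% over the plus strand of the locus and 17.65% in the spacers. On the opposite strand, 911 bases of 18S (49.3%, 47.0 to 51.5) were covered, and neither spacer had a site.

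**Figure D1:**
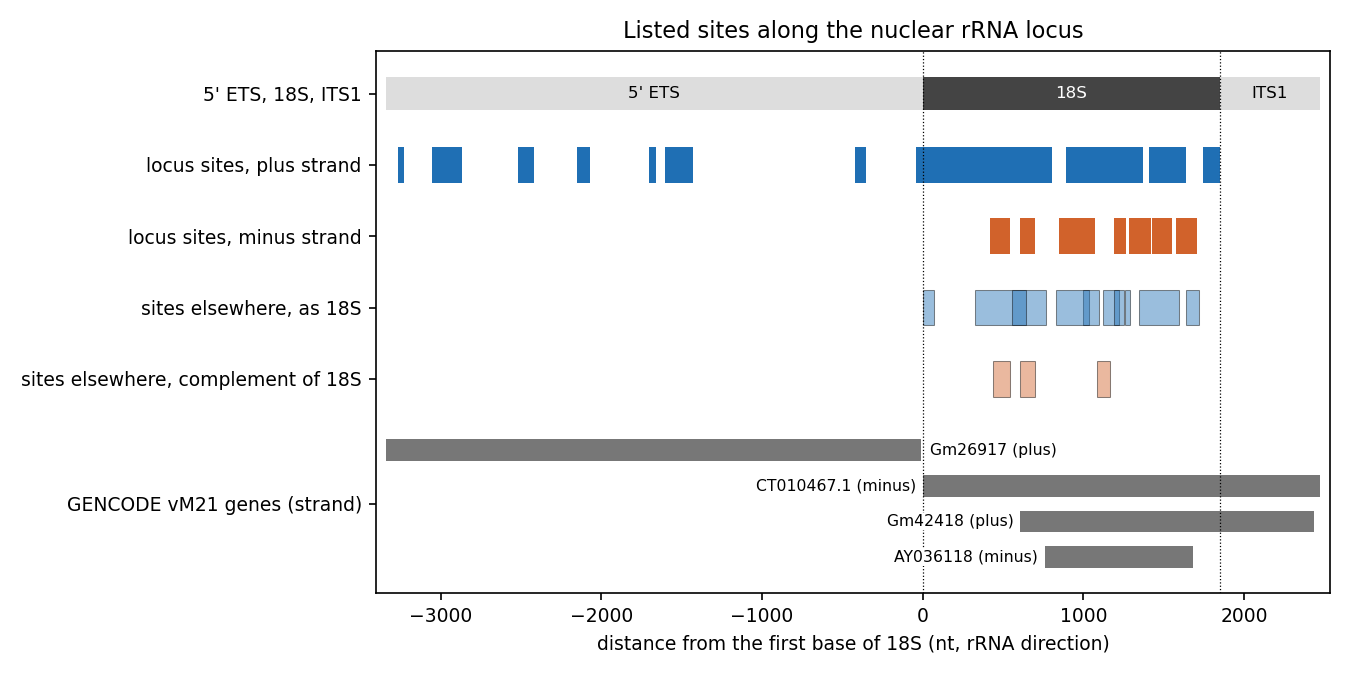
Listed sites along the rRNA locus, against distance from the first base of 18S in nt. Rows show the 5′ETS, 18S and ITS1, the 11 plus-strand and 7 minus-strand sites of the locus, the 13 sites elsewhere in the genome drawn where their sequence matched the locus, and the 4 GENCODE genes with their strand. Minus-strand sites lie in 18S and none lies in a spacer.

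The 18S rRNA, in the sense of the ribosomal RNA, was covered by 4 sites with 3 gaps between them. The first, at chr17:39846309-39847157, was 849 nt wide and was the widest of all 552 sites. It began 44 nt before the first base of 18S and reached position 805, so that the junction of 5′ETS with 18S, which is cut during maturation of the precursor, lay inside a site. The second, at chr17:39847247-39847724, was 478 nt wide and ranked 7 among all sites. The third, at chr17:39847764-39847990, was 227 nt wide and ranked 29. At the 3′ end of 18S, chr17:39848096-39848201 was 106 nt wide and its last base was the last base of 18S. The site thus stopped at the mature end, at a distance of 0 nt, whereas the 5′ side was crossed by 44 nt. The cause of either limit was not tested.

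The bases of 18S left outside plus-strand sites were 89 nt at chr17:39847158-39847246, 39 nt at chr17:39847725-39847763 and 105 nt at chr17:39847991-39848095. The gaps are shown because a call needs a U and because they break an otherwise continuous cover of 18S. None of them lacked U, with 21, 10 and 27 U respectively.
gap of 89 nt: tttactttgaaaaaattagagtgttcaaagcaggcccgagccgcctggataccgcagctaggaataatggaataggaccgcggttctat
gap of 39 nt: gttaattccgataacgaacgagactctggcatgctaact
gap of 105 nt: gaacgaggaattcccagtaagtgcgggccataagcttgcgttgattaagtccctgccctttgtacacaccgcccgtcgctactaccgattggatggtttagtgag

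Their U content was 23.6%, 25.6% and 25.7%, against 21.5% in the plus-strand site bases of 18S, so that the gaps held at least as large a share of U. Taken over all 233 uncovered bases of 18S, U was 24.9%, and the difference of -3.42 percentage points had an interval of -9.66 to 2.10 that included 0. The longest run without a U was 32 nt inside plus-strand sites of 18S and 20 nt outside them. Of the 3 gaps, 45 of 89, 39 of 39 and 71 of 105 bases lay opposite a minus-strand site.

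Coverage along 18S ran in opposite directions on the strands. Of the first 616 bases of 18S, all were in the 849-nt plus-strand site and 21.8% were in a minus-strand site. Over the next 617 bases the plus-strand share was 85.6% and the minus-strand share 57.1%, and over the last 616 bases they were 76.6% and 69.0%. Both strands were covered at 756 bases of 18S (40.9%). A further 860 bases were covered on the plus strand alone, 155 on the minus strand alone and 78 (4.22%) on neither.

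The 7 minus-strand sites all lay wholly in 18S, between positions 423 and 1709. The first 422 bases and the last 140 bases of 18S had no minus-strand site. Nearest the 5′ side, chr17:39846775-39846896 was 122 nt wide and chr17:39846957-39847050 was 94 nt wide, and both lay wholly opposite the 849-nt plus-strand site. The widest of the 7, 225 nt at chr17:39847202-39847426, faced a plus-strand site over 180 of its bases and the 89-nt gap over the other 45. Opposite the 478-nt plus-strand site, chr17:39847541-39847615 was the narrowest, at 75 nt, and is given here in its own direction as an example of the strand that carries no mature rRNA.
minus-strand site of 75 nt: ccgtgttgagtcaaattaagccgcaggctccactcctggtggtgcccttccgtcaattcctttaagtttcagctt

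Further along 18S, chr17:39847640-39847775 was 136 nt wide and faced plus-strand sites over 97 bases. Close beside it, with only 5 nt between them, chr17:39847781-39847904 was 124 nt wide and lay wholly opposite the 227-nt plus-strand site. The last, chr17:39847927-39848061, was 135 nt wide and faced a plus-strand site over 64 bases. In all, 4 of the 7 lay wholly opposite a plus-strand site, and 756 of the 911 minus-strand site bases (83.0%) faced one. This was close to the 87.4% of 18S that plus-strand sites covered.

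Counted by gene, CT010467.1 had all 7 minus-strand sites on its annotated strand (911 bases) and 4 plus-strand sites opposite it (1616 bases). Gm42418 had 4 sites on its own strand (1011 bases) and 6 opposite (788 bases). Gm26917 had 8 sites on its own strand (733 bases), the 849-nt site among them by its first bases, and none opposite. AY036118 had 5 sites on its own strand and 3 opposite by its GENCODE extent, and 0 and 1 by its RefSeq extent. A count over these overlapping genes would thus give the same sites to several genes, and would assign the mature 18S sense to Gm42418, or to a position opposite CT010467.1, according to the annotation used.

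The 5′ETS, which is removed and degraded as the precursor matures, had 7 sites wholly within it and the first 44 nt of the 849-nt site. From the 5′ side, chr17:39843084-39843126 was 43 nt wide, at positions -3269 to -3227. The next, chr17:39843299-39843482, was 184 nt wide and was the widest of the 7. They were followed by chr17:39843836-39843932, 97 nt wide. All 3 lay in the first 1113 nt of the 5′ETS, where 29.1% of bases were in a site. In the next 1114 nt, chr17:39844199-39844283 was 85 nt wide. A narrow site of 48 nt at chr17:39844647-39844694 lay 57 nt before one of 172 nt at chr17:39844752-39844923. Together the 3 covered 27.4% of that stretch.

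Between the 172-nt site and the next lay the longest stretch of the 5′ETS without a site, 1008 nt. After it came chr17:39845932-39846002, 71 nt wide, at positions -421 to -351. A further 306 nt without a site separated it from the 849-nt site at the 18S junction. In the last 1113 nt of the 5′ETS, 10.3% of bases were in a site. The widths of the 7 had a median of 85 nt, against 352.5 nt for the 4 plus-strand sites of 18S.

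The 3 narrowest spacer sites are shown because their sequence can be read whole.
5′ETS site of 43 nt: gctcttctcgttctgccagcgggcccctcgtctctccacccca
5′ETS site of 48 nt: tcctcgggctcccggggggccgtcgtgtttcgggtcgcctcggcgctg
5′ETS site of 71 nt: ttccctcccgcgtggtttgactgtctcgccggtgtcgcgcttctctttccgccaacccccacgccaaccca

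They held 11, 11 and 18 U. Across the 5′ETS, U made up 26.2% of site bases and 21.6% of uncovered bases, a difference of 4.60 percentage points (interval 1.16 to 8.22), and U and C together made up 63.8% against 54.6%, a difference of 9.22 points (5.22 to 13.1). G was lower in the sites, at 29.8% against 36.6%. These intervals count each base as independent and are too narrow, since the bases came from few sites. The single sites ranged widely, from 18.8% U in the 85-nt site to 31.5% in the 184-nt site. In 18S the same comparison gave 48.1% U and C both inside and outside plus-strand sites. ITS1, which had no site, was 22.0% U on the rRNA strand, close to the 22.6% of 5′ETS and the 21.9% of 18S.

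On the minus strand, U (the complement of A) made up 25.5% of site bases, and 20.0% of the minus-strand bases of 18S outside sites, a difference of 5.42 points (1.60 to 9.23). The minus strand of the spacers was poor in U, at 8.23% in the 5′ETS and 6.71% in ITS1, so the minus-strand sites lay where the minus strand was richer in U. Over both strands of the locus, U was 23.7% of site bases and 15.1% of uncovered bases, a difference of 8.56 points (6.94 to 10.2). Set against uncovered bases within 100 nt of a site, the difference was 2.20 points and its interval (-0.06 to 4.43) included 0. Since the caller needs T-to-C changes, U content bears on where a site can be called, and its part in the result was not tested.

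Predicted base pairing on the rRNA strand differed little. The mean unpaired probability was 0.417 ± 0.302 (SD over 2360 bases) in plus-strand sites and 0.380 ± 0.297 (SD over 3455 bases) outside, a difference of 0.0363. Within the 5′ETS the difference was 0.0415, and within 18S it had the opposite sign, at -0.0177. These differences were small beside the spread over bases. Among single sites the 71-nt spacer site had the highest mean, 0.534, and the 43-nt spacer site the lowest, 0.282.

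**Figure D2:**
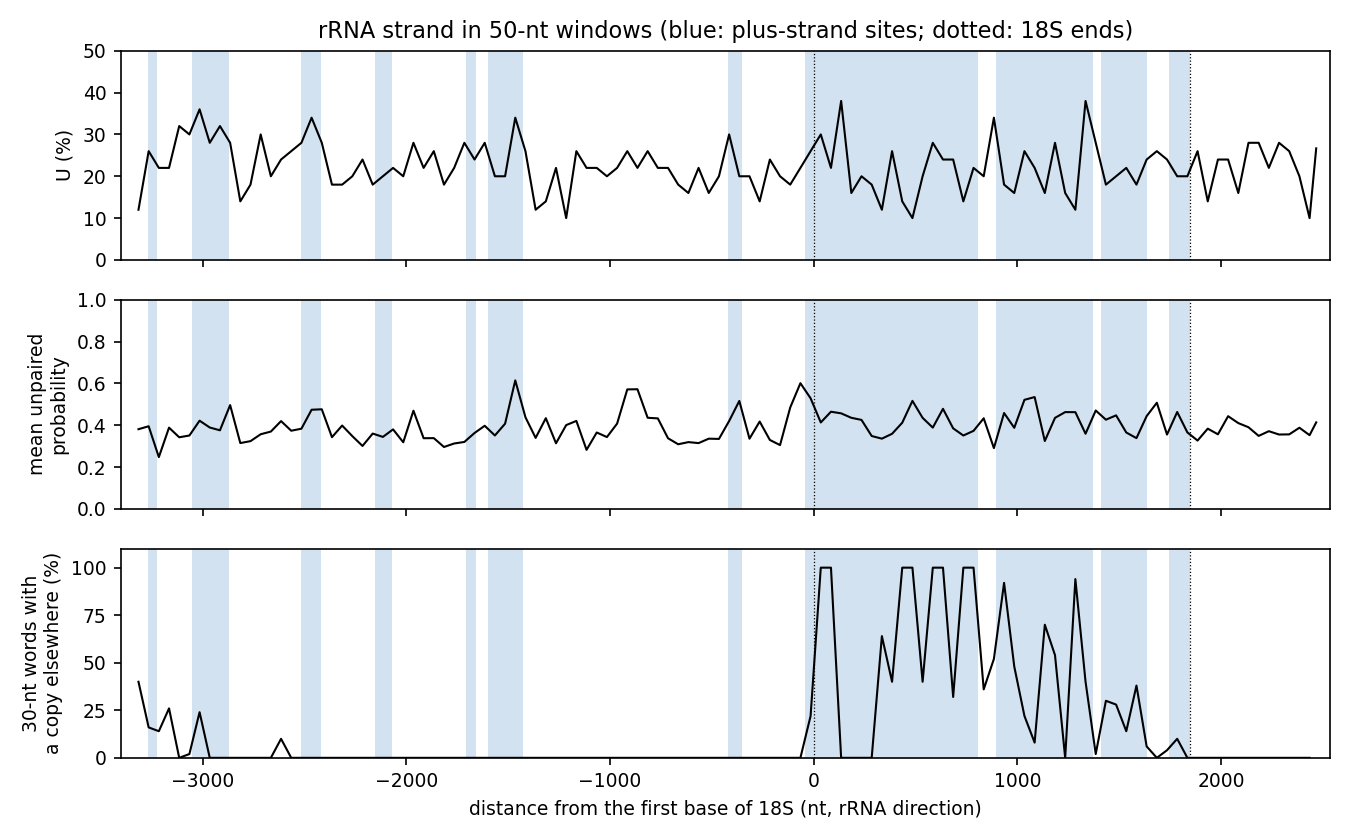
U content, mean predicted unpaired probability and the share of 30-nt words with an identical copy elsewhere in the genome, in 50-nt windows of the rRNA strand against distance from the first base of 18S in nt. Blue bands are the 11 plus-strand sites and dotted lines the ends of 18S. Word copies are concentrated in 18S. Whether U content or pairing changes at the ends of 18S was not tested. Mean unpaired probability was 0.601 and 0.529 in the windows starting at -90 and -40 nt, and 0.413 in the window starting at 10 nt.

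The placing of reads was examined next, since an aligner that reports 1 place for a read can split the RNA of 1 gene among its copies. Of the 2515 positions in a site on either strand, 32.6% began a 30-nt word found elsewhere in the genome, against 2.08% of the 3271 positions outside sites. Most of this followed the division into 18S and spacers. Within 18S the shares were 45.1% in sites and 29.5% of the 78 positions outside them. Within the 5′ETS they were 2.96% in sites and 1.73% outside. In ITS1, none of the 597 words had a copy.

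The sites differed in this respect. All 93 and all 65 words of the 122-nt and 94-nt minus-strand sites had a copy elsewhere. The 849-nt site had copies for 56.7% of its words, and the last plus-strand site for 9.09%. In the 5′ETS, 5 of the 7 sites had no word with a copy, and the exceptions were the 43-nt site (8 of 14 words) and the 184-nt site (13 of 155). Chromosome 6 held the most copies, 547 of 30-nt words, followed by chromosome 16 with 111 and chromosome 1 with 91.

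Other listed sites were accordingly compared with the locus. Of 533 compared, 13 matched it at 90% identity or more over at least 90% of their width, on 6 chromosomes. Of these, 12 matched wholly within 18S, and the remaining one, chr16:18533258-18533332 on the minus strand, matched positions -1 to 73 at 100% identity. The 7 sites lying wholly in the 5′ETS had no counterpart of this kind. With the 18 sites of the locus, 31 sites, or 6.15% of the 504 nuclear sites (4.37 to 8.60), had rRNA sequence of this locus, where the 18 alone were 3.57%.

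Of the 13, 10 read in the sense of 18S and 3 read as its complement. Chromosome 6 held 5 of them in a fragment of 18S. The plus-strand sites chr6:3200767-3201208 (442 nt, 99.1% identity), chr6:3201270-3201539 (270 nt) and chr6:3201566-3201663 (98 nt) read in the sense of 18S. The minus-strand sites chr6:3200879-3200985 (107 nt) and chr6:3201046-3201139 (94 nt) read as its complement and were identical to the locus. The first of these spanned positions 438 to 544 and shared the limit at position 544 with the 122-nt minus-strand site, and the second had both limits of the 94-nt minus-strand site, positions 605 to 698. Both pairs lie in sequence where every 30-nt word had a copy, so that the chromosome 17 and chromosome 6 sites cannot be told apart as separate RNAs.

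The remaining matching sites were scattered. In the sense of 18S these were chr1:56782051-56782301 (minus strand, 251 nt), chr1:156044252-156044286 (plus strand, 35 nt), chr10:51521894-51521929 (minus strand, 36 nt), chr4:78774036-78774115 (plus strand, 80 nt), chrX:24008426-24008511 (plus strand, 86 nt) and chrX:76128991-76129051 (minus strand, 61 nt). The complement of 18S was matched by chr10:82955292-82955373 (plus strand, 82 nt). Their identity to the locus ran from 92.5% for the chromosome 4 site to 97.2% for the 36-nt site of chromosome 10.

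Locus sites alone covered 87.4% of 18S in its sense and 49.3% in the opposite sense, and overlap was not tested against these shares. Of the 13 matches, 11 overlapped a site of the locus in the same sense and 9 lay wholly inside one. The other two fell in gaps of the locus. The chromosome 4 site matched positions 1640 to 1719, inside the 105-nt gap of the plus strand, and chr10:82955292-82955373 matched positions 1084 to 1163, inside a 114-nt gap between minus-strand sites. The 251-nt site of chromosome 1 matched positions 1348 to 1598 and so spanned the 39-nt gap. The 270-nt site of chromosome 6 matched positions 829 to 1098 and so covered part of the 89-nt gap, positions 806 to 894. With the matching sites laid on the locus, 1801 of 1849 bases of 18S (97.4%, 96.6 to 98.0) were covered in the rRNA sense and 991 (53.6%) in the opposite sense. The uncovered rRNA-sense bases of 18S fell from 233 to 48. Of the 30-nt words wholly inside the 89-nt gap, 23 of 60 had an identical copy elsewhere. In the 39-nt gap this was 0 of 10 words, and in the 105-nt gap 0 of 76. Whether reads of the gaps were placed on copies was not tested.

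The mitochondrial rRNAs gave the nearest comparison. On their own strand, mt-Rnr1 (12S rRNA) had 9.74% of 955 bases in a site and mt-Rnr2 (16S rRNA) 51.4% of 1582 bases, against 87.4% in 18S. Without the 849-nt site the share of 18S was 43.9%. The share of mt-Rnr2 without its own widest site was not computed. The order of 18S and mt-Rnr2 with the widest site of each left out was therefore not compared. On the opposite strand the shares were 69.5% and 31.8%, with 49.3% in 18S between them. The 15 sites touching a mitochondrial rRNA gene ranged in width from 75 to 244 nt. Their median of 129 nt was near the 123 nt of the 18 locus sites, which include the spacer sites. On the rRNA strand the medians were 145.5 nt for 6 mitochondrial rRNA sites and 352.5 nt for the 4 sites of 18S. On the opposite strand they were 116 nt for 9 sites and 124 nt for 7. Other annotated nuclear rRNA genes had 6 sites on their strand, all in 5S rRNA genes on chromosomes 4 and 8 and 57 to 90 nt wide. With 1 library these differences between RNAs could not be tested against a spread between samples.

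**Figure D3:**
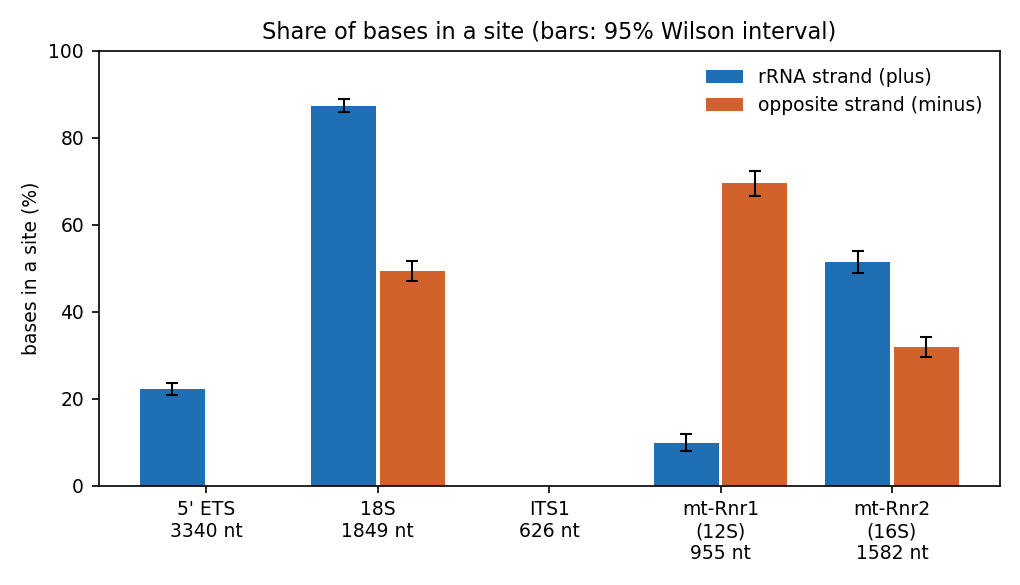
Share of bases in a site, in percent, for each segment of the locus and for the mitochondrial rRNAs, on the rRNA strand (blue) and the opposite strand (orange). Error bars are 95% Wilson intervals and are omitted where no base was covered. The rRNA strand of 18S has a share of 87.4%, which would be 43.9% without the 849-nt site, and ITS1 has none.

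The locus sites were wide for nuclear sites. Their widths ran from 43 to 849 nt with a median of 123 nt, against a median of 76 nt and a range of 15 to 442 nt for the other 486 nuclear sites, and 14 of the 18 exceeded the median of the whole list, 80.5 nt. Of the 20 nuclear sites at least 200 nt wide, 4 were in the locus. All 4 overlapped 18S, 3 in its sense and 1 opposite it. Minus-strand sites were wider at the median (124 nt) than plus-strand sites (106 nt), and the plus strand included the narrow spacer sites. The 7 sites wholly in the 5′ETS had a median of 85 nt, near the 82.5 nt of the other nuclear plus-strand sites. The 4 plus-strand sites that overlapped 18S had a median of 352.5 nt. The greater width thus lay with the sites that overlapped 18S. The locus sites made up 6.64% of all nuclear site bases. The other 486 nuclear sites included the 13 that matched the locus. The median of these 13 was 86 nt, and 3 of them were at least 200 nt wide, the 442-nt site among them. Mitochondrial sites had a median of 147.5 nt, and 16 of the 48 were at least 200 nt wide.

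**Figure D4:**
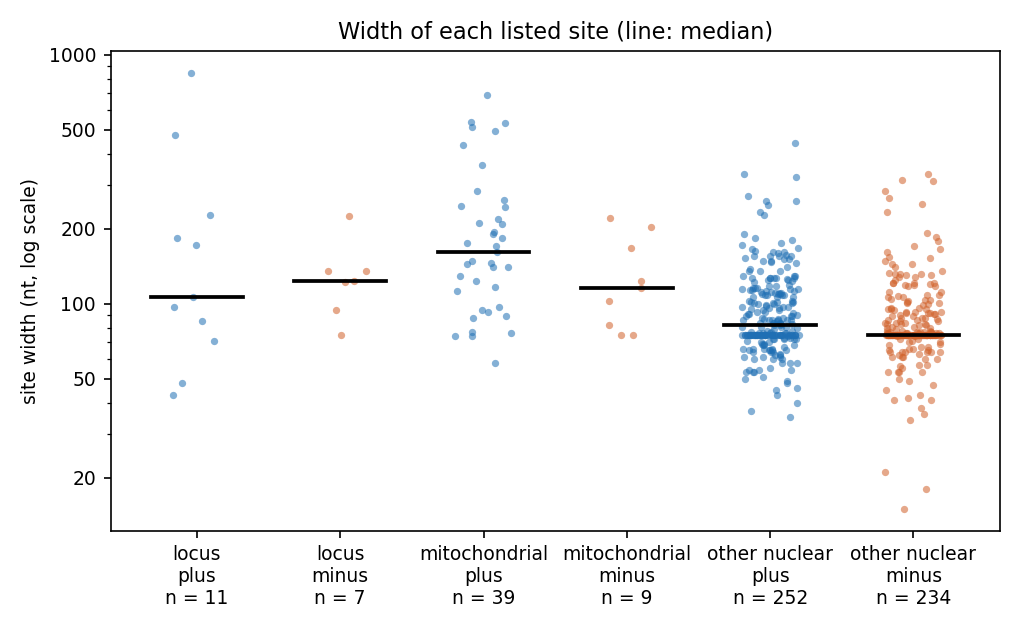
Width of each listed site in nt (log scale) by place and strand, 1 point a site, with the median as a line. The 11 plus-strand sites of the locus run from 43 to 849 nt and the 7 minus-strand sites from 75 to 225 nt, and the widest site of the list is in the locus.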

How the data were processed

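The authors prepared 1 experimental and 1 control PAR-CLIP library with molecular barcodes. Per the study's methods and the submitters' processing notes, adapters were trimmed with cutadapt 1.10, reads were aligned with Bowtie 1.12 to mm10 masked for nuclear copies of mitochondrial DNA, and sites were called with BMix. The aligner reported 1 place for a read with several. The deposited list of the experimental sample gave start and end positions, and the score column deposited by the authors was 0 in every line. No site list of the control sample was available here.

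Starts were converted to 1-based positions. The reference was GRCm38.p6 (mm10), with GENCODE vM21 and RefSeq annotation. Words were matched exactly on both strands of the primary assembly, leaving out the locus itself. Sites were compared with blastn 2.17.0. Unpaired probabilities came from RNAplfold 2.7.2 in windows of 150 nt with a span of 100 nt. The 11 sites of 1 unplaced contig, recognised by its annotated reading frame, were compared and 1 unplaced site was not. Intervals for shares are Wilson intervals and those for differences Newcombe intervals, at 95%. Both kinds, where taken over bases, treat neighbouring bases as independent and are too narrow. Coverage, intervals, word counts and blastn matching were tested on simulated data. Python 3.11.15, NumPy 2.4.6 and matplotlib 3.10.9 were used.

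Genes were named where their annotation overlapped the locus, with mitochondrial and other nuclear rRNA genes for comparison, and sites elsewhere where they matched the locus or were nearest to it. The members and lists were chosen with earlier results of these data known. No test was made, as the list came from 1 library. Alternatives changed the membership rule, minimum width, strand, windows, rRNA ends, word length, match threshold and folding window.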

Additional observations from a re-analysis of the deposited data

How the results depend on the processing

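The number of locus sites was 14 to 18 under the alternatives run, the number of matching sites 12 or 13, and the median width 122 nt when sites up to 10 nt apart were joined or the widest was left out. Without the 849-nt site, coverage of the plus strand was 26.0%, that of 18S on the rRNA strand 43.9%, and the plus-strand share of site bases 62.4%, so these values rest largely on 1 site. Dropping sites narrower than the list median gave 37.8% on the plus strand, 14.4% on the minus strand and 14.7% in the spacers. Counting 50-nt windows touched by a site gave 50.4% on the plus strand, 19.7% on the minus strand, 97.3% in 18S and 30% in the spacers. Ignoring strand gave 43.3% for the locus and 95.8% for 18S. With the ends of the annotated rRNA gene, coverage was 65.3% in the gene and 22.3% outside it, since the gene includes ITS1. By number in place of bases, 61.1% of sites were on the plus strand. The share of site positions with a copied word was 45.3% for 20-nt and 21.4% for 50-nt words. The U difference was 2.20 points against uncovered bases within 100 nt of a site. The difference in unpaired probability was -0.0177 within 18S, opposite in sign to the whole locus, and this alternative was chosen after seeing the data. Under every alternative run, coverage of 18S on the rRNA strand exceeded that of the spacers. The list gave no read counts, so a base outside all sites may be unbound or too thinly read. No paired analysis was possible because the site list came from a single library.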
